A study of Rattus norvegicus with 9 samples.

Results

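The genes that encode the subunits of the brain's glutamate and GABA receptors were followed in rat brain RNA after occlusion of the middle cerebral artery, which models ischemic stroke, with and without NMN (nicotinamide mononucleotide), from which cells make NAD. Members were chosen by name alone, as symbols that begin with Gria, Grin1, Grin2, Grin3, Grik, Grm, Gabr, Gabbr or Cacng and go on only with the number or letter of a subunit. The rule found 50 of the 12609 symbols in the table. Of these, 45 reached at least 1 TPM (a length-scaled share of all transcripts, in which every library has the same total) in at least 3 of the 9 libraries, among 10180 symbols that did so.

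There were 3 groups of 3 libraries. Sham rats had the surgery without the occlusion and carry PBS as their treatment label. IR rats had the occlusion (IR stands for ischemia and reperfusion, going by the title) and also carry PBS. IR+NMN rats had the occlusion and were injected with NMN at 100 mg/kg in saline. The sources used here do not give the strain, age, brain region, hemisphere or time after surgery. They do not say whether the libraries stand for separate animals either, so the spread behind the p-values may be technical.

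Glutamate is the main excitatory and GABA the main inhibitory transmitter of the adult brain. AMPA receptors (Gria genes) carry the fast excitatory current, NMDA receptors (Grin genes) admit calcium and are known for their part in excitotoxic injury, and kainate receptors (Grik genes) tune release and excitability. Metabotropic glutamate receptors (Grm genes) and GABA-B receptors (Gabbr genes) act through G proteins, whereas GABA-A receptors (Gabr genes) are chloride channels. Most Cacng genes encode transmembrane AMPA receptor regulatory proteins (TARPs), which bring AMPA receptors to the synapse and slow their closing.

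Few receptor genes passed the test at an adjusted p under 0.05, and each change that did was against Sham. In IR, 2 genes were lower than in Sham (4.44%, against 5.26% of all genes), the kainate receptor subunit gene Grik3 and the TARP gene Cacng3. In IR+NMN, the same genes were lower than in Sham, joined by Gabrg3 and Grm8 (8.89%, against 6.13% of all genes). There, 2 genes of low level, Gabrr2 and Grin3b, were higher (4.44%, against 4.21%). Gabrg3, Grm8, Gabrr2 and Grin3b moved the same way in IR without passing the test (adjusted p from 0.0513 to 0.175 in limma). No receptor gene was called between IR+NMN and IR.

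The promoters of Grik3 and Cacng3, the receptor genes that fell in both comparisons with Sham, and of Gabrr2, the gene that rose with the smallest p, are shown. Whether the promoter sequences bear on the changes was not tested. RefSeq sequences on GRCr8 (250 bases before to 50 after the annotated start) were at hand for 30 of the 45 genes. Grik3 lies at chr5:143052192-143052491, Cacng3 at chr1:186632312-186632611 and Gabrr2 at chr5:52248228-52248527, each on the plus strand. Capitals mark matches, on either strand, to any of 5 motifs: the cyclic AMP response element TGACGTCA, the GC box GGGCGG, the E-box CACGTG, and the letters TTCAGCACC and GGACAGC from the left and the right side of the RE1 element.
Grik3: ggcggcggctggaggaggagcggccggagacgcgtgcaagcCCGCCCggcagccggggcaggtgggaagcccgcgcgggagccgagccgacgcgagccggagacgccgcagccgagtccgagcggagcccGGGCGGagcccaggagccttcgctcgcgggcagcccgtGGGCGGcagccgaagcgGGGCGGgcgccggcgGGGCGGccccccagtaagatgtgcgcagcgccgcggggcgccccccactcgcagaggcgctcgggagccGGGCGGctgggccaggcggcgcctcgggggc
Cacng3: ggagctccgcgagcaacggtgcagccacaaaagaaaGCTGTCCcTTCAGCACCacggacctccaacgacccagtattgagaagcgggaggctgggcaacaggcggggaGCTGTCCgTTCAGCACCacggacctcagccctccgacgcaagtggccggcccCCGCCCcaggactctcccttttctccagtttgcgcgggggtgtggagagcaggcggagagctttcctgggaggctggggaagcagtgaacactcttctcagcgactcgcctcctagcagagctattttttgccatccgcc
Gabrr2: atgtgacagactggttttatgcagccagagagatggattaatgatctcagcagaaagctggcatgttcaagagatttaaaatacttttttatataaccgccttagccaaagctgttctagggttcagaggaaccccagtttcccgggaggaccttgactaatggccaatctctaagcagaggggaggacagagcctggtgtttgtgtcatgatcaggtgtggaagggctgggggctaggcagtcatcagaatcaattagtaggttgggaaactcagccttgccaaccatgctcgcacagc
The Grik3 window held 6 GC boxes and was 82.3% G or C. The Cacng3 window held 1 GC box and, at 2 places, the right RE1 letters in reverse close before the left RE1 letters. The Gabrr2 window held no match and was 48.0% G or C. The window of Grm8, a gene that fell, likewise held no match and was 47.3% G or C. That of Gabrg3, which fell too, held 3 matches and was 76.7% G or C. Over all 33469 promoters of this length, 33.1% held a GC box, 0.356% the left and 6.59% the right RE1 letters, and among the 30 receptor promoters these were in 12, 1 and 2. The response element was in 1.83% and the E-box in 6.42% of all promoters and in 0 of the receptor promoters.

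Several properties of the libraries bear on the results that follow. All of the 16 pan-neuronal markers were measured and none was at 0; they summed to 8022 to 9371 TPM for Sham against 5946 to 8855 for IR and 5982 to 6924 for IR+NMN, and 1 of them (Tubb3, in IR+NMN against Sham, log2 -0.65, adjusted p = 0.0270) was called. Astrocyte markers (12 of 12 measured) summed to 4066 to 5219, 5549 to 7289 and 6272 to 8862 TPM in the same order. Gfap, the filament gene of reactive astrocytes, was at 801, 498 and 394 TPM in Sham, 2645, 1336 and 666 in IR and 4121, 4634 and 4315 in IR+NMN, and was called higher in IR+NMN against Sham (log2 3.01, adjusted p = 0.00605). The other 11 astrocyte markers summed to 3672 to 4721 TPM for Sham against 4213 to 4937 for IR and 2146 to 4228 for IR+NMN. Of all 12, 10 lay below 0 in IR+NMN against Sham (median -0.70, 1 called lower) and 6 in IR against Sham (median -0.02, 0 called). Microglia and macrophage markers (14 of 14) summed to 580 to 677, 841 to 878 and 778 to 961 TPM, but 6 of them lay below 0 in each comparison with Sham (medians 0.06 in IR and 0.26 in IR+NMN). In IR+NMN against Sham 5 of them were called higher and 3 lower. C1qa, a complement gene, averaged 70.8 ± 7.76 TPM for Sham, 145 ± 6.79 for IR and 141 ± 24.7 for IR+NMN (n = 3), and P2ry12, a receptor of resting microglia, 34.7 ± 1.59, 20.7 ± 5.38 and 8.99 ± 3.62 TPM. Red blood cell markers (8 of 8) summed to 4081 to 9337, 732 to 900 and 825 to 1011 TPM. Of these markers, Aqp4 (astrocyte) was at 0 in 1 library and Ahsp (red blood cell) in 6. Ribosomal protein genes took 5.55% to 6.93% of TPM for Sham, 5.96% to 8.69% for IR and 7.39% to 11.6% for IR+NMN. Choroid and ependymal markers (7 of 9) summed to 30.2 to 55.1, 3.35 to 4.17 and 8.86 to 13.1 TPM in that order. In IR against Sham, 3 of 9 hippocampal, thalamic and hypothalamic and 2 of 11 striatal markers were called lower (against 5.26% of all genes). Of 9 cortical excitatory markers, 0 were called there (median 0.06). The part of these differences in the receptor results was not tested, beyond the fits with a covariate given below. In bulk tissue of unstated region, fewer neurons, less receptor RNA per neuron and differing pieces of tissue cannot be told apart.

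Libraries of the same group also stood apart. IR 1 was the highest IR library for 36 of the 45 receptor genes and IR+NMN 2 the highest IR+NMN library for 37. IR+NMN 1 was the lowest of its group for 38, and Sham 3 the lowest of the Sham libraries for 32. The 45 genes summed to 3865, 3368 and 2557 TPM in Sham, 3399, 2342 and 2255 in IR and 1668, 3588 and 2243 in IR+NMN. The sums overlapped between groups, since IR 1 and IR+NMN 2 lay among the Sham libraries.

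Against Sham, IR had 2 of the 45 receptor genes lower (4.44%) and 0 higher, where 5.26% of all tested genes were lower and 1.14% higher. The share was near the background. In IR+NMN against Sham, 4 were lower (8.89%, against 6.13% of all genes) and 2 higher (4.44%, against 4.21%). The groups did not overlap for 11 receptor genes lower in IR than in Sham (24.4%, against 26.7% of all genes) and 2 higher (4.44%, against 7.58%). For IR+NMN against Sham these counts were 11 lower (against 20.4% of all genes) and 2 higher (against 13%). At an unadjusted p under 0.05 stood 12 receptor genes in IR against Sham (26.7%, against 28.3% of all genes) and 18 in IR+NMN against Sham (40.0%, against 29.9%). Most fitted changes were downward without passing the test: 40 of the 45 lay below 0 in IR against Sham (88.9%, against 72.6% of all genes) and 42 in IR+NMN against Sham (93.3%, against 64.8%), with medians of -0.40 and -0.56 on the log2(TPM + 1) scale, where the medians of all genes were -0.21 and -0.14. The 16 pan-neuronal markers had medians of -0.34 and -0.47 in the same comparisons, with 15 and 16 of them below 0. Scaling the libraries to equal quantiles moved the medians of all genes to 0.00 and -0.02 and those of the receptor genes to -0.20 and -0.43.

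The counts depended on single libraries. A single receptor gene was called in IR against Sham when Sham 1, Sham 2, Sham 3, IR 2, IR 3 or IR+NMN 3 was left out, whereas 4 were called when IR 1 was, 3 when IR+NMN 1 was and 8 when IR+NMN 2 was. In IR+NMN against Sham, 2 were called without Sham 1, 1 without Sham 2, Sham 3 or IR+NMN 3, 3 without IR 2, IR 3 or IR+NMN 1, and 15 without IR+NMN 2. The share of all genes called in these fits is not given here, so the counts do not set receptor genes apart. With quantile scaling, IR against Sham had 2 higher and 2 lower (2.85% and 2.87% of all genes), and IR+NMN against Sham 2 higher and 8 lower (7.04% and 6.8% of all genes). With the mean level of the pan-neuronal markers in the fit, 1 gene (Grik3, lower) was called in IR, where 0.57% of all genes were higher and 1.19% lower, and 0 in IR+NMN, where 0.688% were higher and 0.452% lower.

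**Figure D1:**
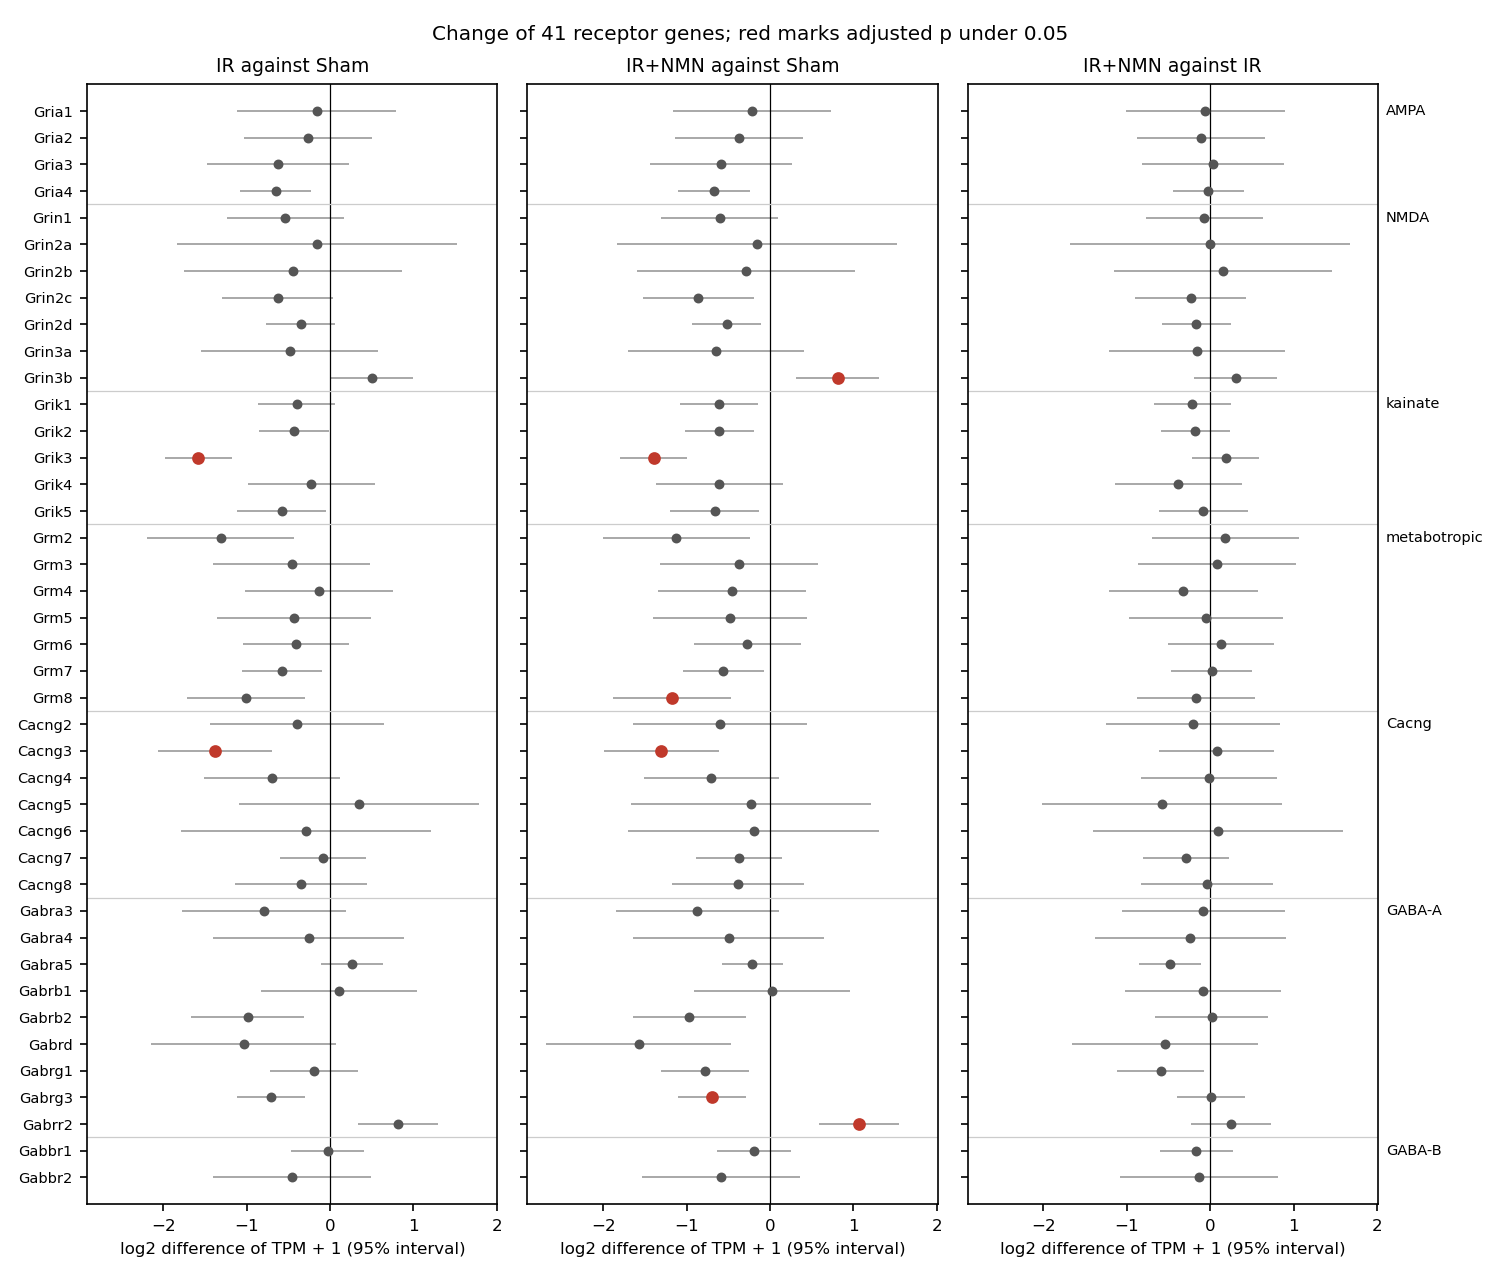
Log2 difference of TPM + 1 (x axis) with its 95% interval for 41 of the 45 receptor genes, by class, in the 3 comparisons; red points had an adjusted p under 0.05. Red points stand left of 0 for Grik3 and Cacng3 in both comparisons with Sham, and no point is red in IR+NMN against IR.

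Kainate receptors had the gene that passed with the smallest p, Grik3, which encodes a low-affinity subunit. Grik3 was at 5.65, 9.29 and 7.53 TPM in the Sham libraries, 2.10, 1.67 and 1.65 in IR and 2.19, 2.31 and 2.04 in IR+NMN. Every occlusion library lay below every Sham library, by a factor of over 2 at the nearest, and the occlusion groups lay close together. The means were 7.49 ± 1.82 TPM for Sham, 1.81 ± 0.257 for IR and 2.18 ± 0.139 for IR+NMN (SD, n = 3), so the mean of Sham was 4.15-fold that of IR and 3.44-fold that of IR+NMN. Grik3 fell by 1.58 in IR on the log2(TPM + 1) scale (SE 0.18, 95% interval -1.98 to -1.18, adjusted p = 0.00310) and by 1.40 in IR+NMN (SE 0.18, adjusted p = 0.00309). The IR call held under each of the 20 alternative settings. The IR+NMN call held under 19, and was lost with the pan-neuronal level in the fit (adjusted p = 0.0721).

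The other kainate receptor genes did not pass the test in any comparison. Grik5, a high-affinity subunit and the most abundant member of the class, was at 81.7, 77.6 and 63.0 TPM in Sham, 64.8, 39.1 and 46.2 in IR and 35.0, 60.6 and 46.0 in IR+NMN. IR 1 lay among the Sham values, and all IR+NMN libraries lay below them, IR+NMN 2 closest. Grik4, the other high-affinity subunit, was at 35.2, 39.2 and 23.1 TPM in Sham, 47.0, 18.0 and 23.2 in IR and 16.8, 21.1 and 24.2 in IR+NMN, and its groups overlapped. Grik2, which carries much of the kainate current of the forebrain, averaged 19.0 ± 2.32 TPM for Sham, 13.9 ± 2.41 for IR and 12.2 ± 2.66 for IR+NMN (n = 3), a log2 difference of -0.61 for IR+NMN against Sham with an adjusted p of 0.0644. Grik1 averaged 5.80 ± 0.996, 4.18 ± 1.08 and 3.45 ± 0.812 TPM. Within the class, Grik3 made up 3.90%, 6.03% and 6.40% of the kainate transcripts in Sham, 1.57%, 2.25% and 1.82% in IR and 3.20%, 2.27% and 2.34% in IR+NMN. This share was lower in each occlusion library than in each Sham library. It was higher in each IR+NMN library than in each IR library, but barely so at the nearest (2.27% against 2.25%), and was not tested. The level of Grik3 itself overlapped between IR+NMN and IR (log2 0.18, adjusted p = 0.825 in limma).

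The TARP gene Cacng3, known for its expression in forebrain neurons, was the other gene that fell in IR. Cacng3 was at 94.8, 92.6 and 67.8 TPM in Sham, 34.4, 36.9 and 25 in IR and 20.2, 49.7 and 37.2 in IR+NMN. All 6 occlusion libraries lay below the lowest Sham library, IR 1 and IR+NMN 2 included, although the IR+NMN libraries spread widely. The means were 85.1 ± 15, 32.1 ± 6.25 and 35.7 ± 14.8 TPM (SD, n = 3), with Sham at 2.65-fold the level of IR and 2.38-fold that of IR+NMN. The log2 difference was -1.38 for IR (SE 0.30, 95% interval -2.07 to -0.69, adjusted p = 0.0367) and -1.30 for IR+NMN (SE 0.30, adjusted p = 0.0309). The IR call held under 12 of the 20 alternative settings. It was lost when Sham 1, Sham 2, Sham 3, IR 2, IR 3 or IR+NMN 3 was left out, with the replicate number as a block and with the pan-neuronal level in the fit, where adjusted p-values reached 0.143. The IR+NMN call held under 11 of 20.

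Cacng8, the main TARP of the hippocampus and the most abundant Cacng gene, was at 326, 226 and 157 TPM in Sham, 263, 149 and 143 in IR and 126, 252 and 162 in IR+NMN, and its groups overlapped widely. Cacng7 averaged 143 ± 32.3, 134 ± 22.8 and 111 ± 29.3 TPM in the same order and did not pass the test. Cacng2, whose product stargazin is the founding TARP, ranged from 8.05 to 33.0 TPM over the libraries, and Cacng4 from 13.4 to 40.2 TPM. Cacng5 was at 34.5 TPM in IR 1 and between 4.32 and 13.1 TPM in the other libraries. Cacng6, which belongs with the calcium channel gamma subunit of skeletal muscle, ranged from 0.465 to 8.18 TPM. Of the TARP transcripts, Cacng3 made up 14%, 17.4% and 17.9% in Sham, 6.22%, 10.6% and 7.91% in IR and 7.74%, 9.84% and 10.9% in IR+NMN. Each occlusion library thus had a smaller share of Cacng3 than each Sham library, which was not tested. The share of Cacng8 was 42.9% to 47.5% for IR and 47.6% to 49.9% for IR+NMN, without overlap, and 41.3% to 48.2% for Sham.

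**Figure D2:**
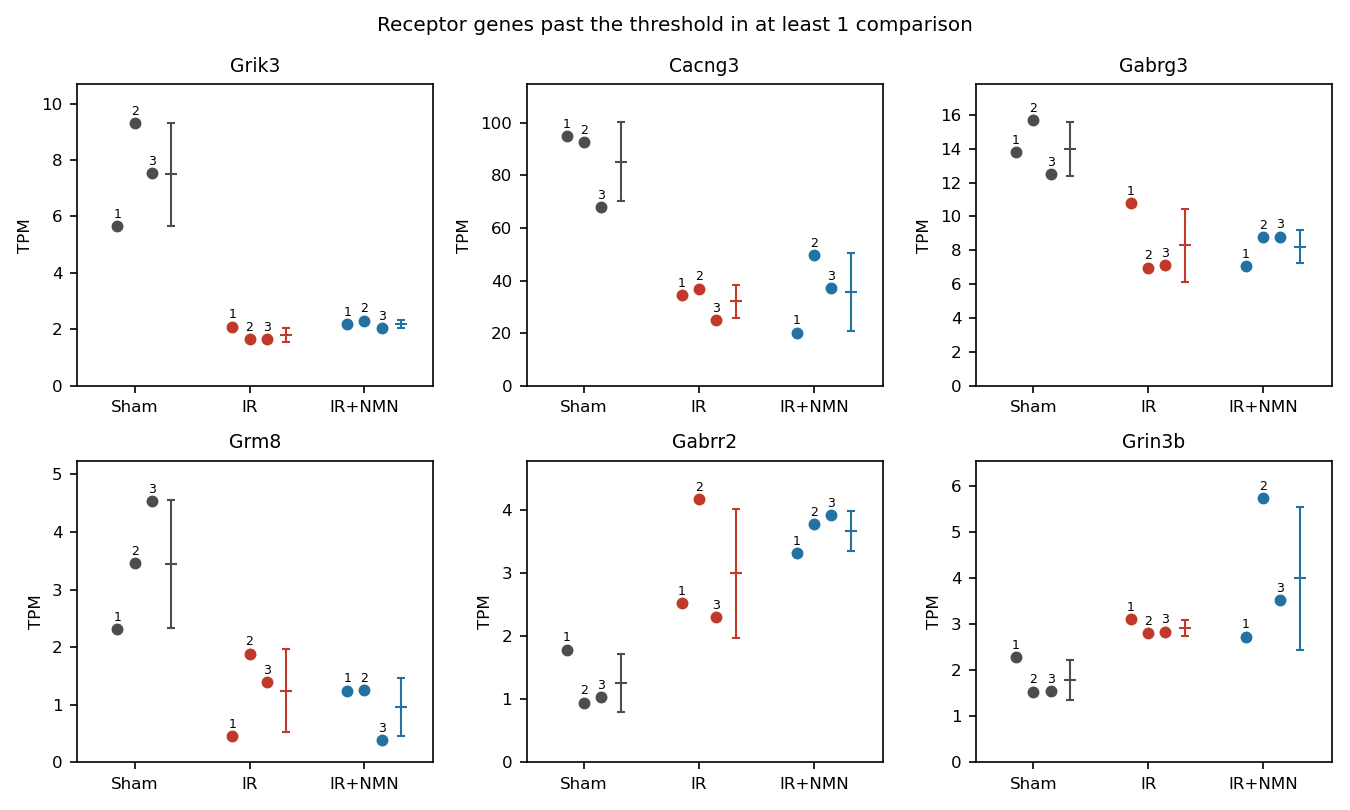
TPM (y axis) of the 6 receptor genes past the threshold in at least 1 comparison, by group; numbered points are libraries and bars are the mean ± SD of 3. Grik3 and Cacng3 lie lower in all 6 occlusion libraries than in Sham, and Gabrr2 and Grin3b lie higher.

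None of the 4 AMPA receptor genes was called. Gria1, a main subunit of forebrain AMPA receptors, was at 301, 215 and 149 TPM in Sham, 254, 173 and 158 in IR and 103, 345 and 173 in IR+NMN. The highest and the lowest value both came from IR+NMN libraries, and the groups overlapped. Gria2, whose edited subunit keeps calcium out of the channel and which had the highest mean level of the class, was at 295, 241 and 180 TPM in Sham, 242, 181 and 169 in IR and 112, 305 and 173 in IR+NMN, and differed by log2 -0.11 between IR+NMN and IR (95% interval -0.88 to 0.66, adjusted p = 0.987). It made up 38.6% to 42.7% of AMPA receptor transcripts over the 9 libraries, and its share overlapped between the groups. Gria3 made up 18.6% to 19.7% for Sham against 14% to 17.1% for IR and 15.6% to 17.7% for IR+NMN, so each occlusion library lay below each Sham library in this share. Its level averaged 114 ± 26.9, 75.6 ± 26.3 and 81.1 ± 40.2 TPM (n = 3) and overlapped. Subunit shares were not tested in any class, and those without overlap are a few out of many.

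Gria4, the subunit with the smallest p of the class, was at 19.5, 20.5 and 25.9 TPM in Sham, 14, 12.3 and 14.4 in IR and 11, 17.8 and 11.9 in IR+NMN. All occlusion libraries lay below the Sham libraries. The log2 difference was -0.65 in IR (SE 0.19, adjusted p = 0.0697) and -0.67 in IR+NMN (SE 0.19, adjusted p = 0.0537), short of the threshold in both.

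Of the 7 NMDA receptor genes, Grin3b alone was called, upward and in IR+NMN against Sham. Grin3b encodes a glycine-binding subunit best known from motor neurons, and it was at 2.29, 1.53 and 1.55 TPM in Sham, 3.12, 2.81 and 2.84 in IR and 2.73, 5.74 and 3.53 in IR+NMN. Both occlusion groups lay above Sham, with IR+NMN 2 the highest. The means were 1.79 ± 0.430, 2.92 ± 0.170 and 4.0 ± 1.56 TPM (SD, n = 3), and the log2 difference was 0.50 in IR (SE 0.22, adjusted p = 0.175) and 0.81 in IR+NMN (SE 0.22, adjusted p = 0.049996). The latter stood at the edge of the threshold and held under 7 of the 19 alternative settings that kept the gene. IR+NMN differed from IR by 0.31 (95% interval -0.19 to 0.81, adjusted p = 0.703).

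Grin1, the obligatory NMDA receptor subunit, was at 239, 244 and 172 TPM in Sham, 218, 120 and 126 in IR and 98.0, 208 and 140 in IR+NMN. IR 1 and IR+NMN 2 lay within the Sham range and the other occlusion libraries below it. It made up 66.2% to 76.2% of the NMDA receptor transcripts, with overlapping groups. Grin2a and Grin2b, the glutamate-binding subunits of the forebrain, averaged 21.1 ± 12.6 and 15 ± 5.27 TPM in Sham, 18.6 ± 11.8 and 11.4 ± 6.95 in IR, and 22.7 ± 20.2 and 14.3 ± 10.9 in IR+NMN (n = 3). Grin2a made up 49.8% to 64.1% of their sum over the 9 libraries, with overlap. Grin2c, at home in cerebellum, thalamus and astrocytes, averaged 30.1 ± 6.40, 19.1 ± 4.36 and 16.8 ± 7.59 TPM, and Grin2d 4.14 ± 0.675, 3.06 ± 0.832 and 2.57 ± 0.156 TPM. Grin3a, the other glycine-binding subunit of this kind, averaged 5.48 ± 2.69, 3.70 ± 2.46 and 3.05 ± 1.51 TPM. None of these passed the test.

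Among the 8 metabotropic glutamate receptor genes, Grm8 fell in IR+NMN against Sham. Grm8 is a group III receptor of the presynaptic terminal, where it restrains release. It was at 2.32, 3.45 and 4.54 TPM in Sham, 0.457, 1.89 and 1.40 in IR and 1.25, 1.26 and 0.388 in IR+NMN. All occlusion libraries lay below Sham, 2 of them under 1 TPM. The means were 3.44 ± 1.11, 1.25 ± 0.727 and 0.964 ± 0.498 TPM (SD, n = 3), and the log2 difference was -1.01 in IR (adjusted p = 0.0829) and -1.18 in IR+NMN (SE 0.31, adjusted p = 0.0470). The IR+NMN call held under 5 of the 19 alternative settings that kept the gene.

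Grm2, a group II autoreceptor, was at 30.2, 19.7 and 23.7 TPM in Sham, 9.40, 7.91 and 10.3 in IR and 7.55, 22.9 and 6.50 in IR+NMN. All IR libraries and 2 of the IR+NMN libraries lay below Sham, whereas IR+NMN 2 lay within it. The log2 difference was -1.31 in IR (SE 0.39, adjusted p = 0.0755). Summed with Grm3, group II was at 58.8, 52.5 and 37.9 TPM in Sham, 35.1, 22 and 24.0 in IR and 18.8, 53.6 and 23.5 in IR+NMN, so IR lay below Sham and IR+NMN overlapped with it.

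Grm5, the most abundant metabotropic gene and a group I receptor coupled to calcium release, was at 52.3, 50.9 and 31.6 TPM in Sham, 47.5, 26.6 and 26.6 in IR and 17.4, 56.5 and 30.3 in IR+NMN, with overlap. Grm7, another presynaptic group III receptor, averaged 24.7 ± 1.94, 16.3 ± 2.34 and 16.9 ± 5.52 TPM and did not pass in IR (log2 -0.57, adjusted p = 0.126). Grm4 ranged from 7.71 to 26.2 TPM over the libraries. Grm4 had the smallest p of the class between IR+NMN and IR (log2 -0.32, 95% interval -1.21 to 0.57, adjusted p = 0.896). Grm6, a receptor of retinal bipolar cells, ranged from 0.634 to 2.45 TPM.

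Of the 12 GABA-A receptor genes, Gabrg3 fell and Gabrr2 rose in IR+NMN against Sham. Gabrg3, a minor gamma subunit, was at 13.8, 15.7 and 12.5 TPM in Sham, 10.8, 6.99 and 7.12 in IR and 7.08, 8.79 and 8.81 in IR+NMN. All occlusion libraries lay below Sham, IR 1 nearest to it. The means were 14 ± 1.61, 8.30 ± 2.15 and 8.23 ± 0.994 TPM (SD, n = 3), and the log2 difference was -0.71 in IR (adjusted p = 0.0513) and -0.70 in IR+NMN (SE 0.18, adjusted p = 0.0425). The IR+NMN call held under 10 of the 20 alternative settings.

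Gabrr2, a rho subunit best known from the retina, was at 1.79, 0.947 and 1.03 TPM in Sham, 2.53, 4.18 and 2.30 in IR and 3.32, 3.78 and 3.92 in IR+NMN. All occlusion libraries lay above Sham, and the IR+NMN libraries were close to each other. The means were 1.26 ± 0.464, 3.0 ± 1.02 and 3.67 ± 0.314 TPM (SD, n = 3), 2.39-fold higher in IR and 2.92-fold higher in IR+NMN than in Sham. On the log2(TPM + 1) scale the differences were 0.82 in IR (adjusted p = 0.0537) and 1.07 in IR+NMN (SE 0.21, 95% interval 0.59 to 1.55, adjusted p = 0.0174). The IR+NMN call held under 13 of the 19 alternative settings that kept the gene.

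Gabrb2, a beta subunit of many synaptic receptors, was at 94.5, 95.4 and 82.1 TPM in Sham, 60.0, 45.9 and 33.5 in IR and 32.4, 73.6 and 40.0 in IR+NMN. All occlusion libraries lay below Sham, and the log2 difference was -0.99 in IR (adjusted p = 0.0774) and -0.97 in IR+NMN (adjusted p = 0.0698). Gabrb2 made up 37.8% to 50.3% of the beta subunit transcripts for Sham, 30.0% to 38.1% for IR and 31.0% to 37.2% for IR+NMN. In this share IR+NMN lay below Sham and IR overlapped with it. Gabrd, the subunit of extrasynaptic receptors behind tonic inhibition, averaged 29.4 ± 11.2, 13.2 ± 1.61 and 11 ± 9.64 TPM (n = 3), with adjusted p = 0.201 in IR and 0.0712 in IR+NMN.

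Gabra5, an extrasynaptic alpha subunit typical of the hippocampus, was at 147, 115 and 123 TPM in Sham, 187, 133 and 147 in IR and 95.2, 122 and 115 in IR+NMN. The IR+NMN libraries lay below the IR libraries, without passing the test (log2 -0.48, SE 0.16, 95% interval -0.85 to -0.11, adjusted p = 0.208). Gabra5 made up 32.1% to 34.1% of the alpha subunit transcripts analysed for Sham, 38.1% to 45.8% for IR and 31.5% to 42.7% for IR+NMN. In this share IR lay above Sham and IR+NMN overlapped with both. Gabra3 ranged from 9.69 to 39.5, Gabra4 from 18.6 to 84.3, Gabrb1 from 11.7 to 34.7 and Gabrg1 from 17.7 to 49.99 TPM over the 9 libraries.

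**Figure D3:**
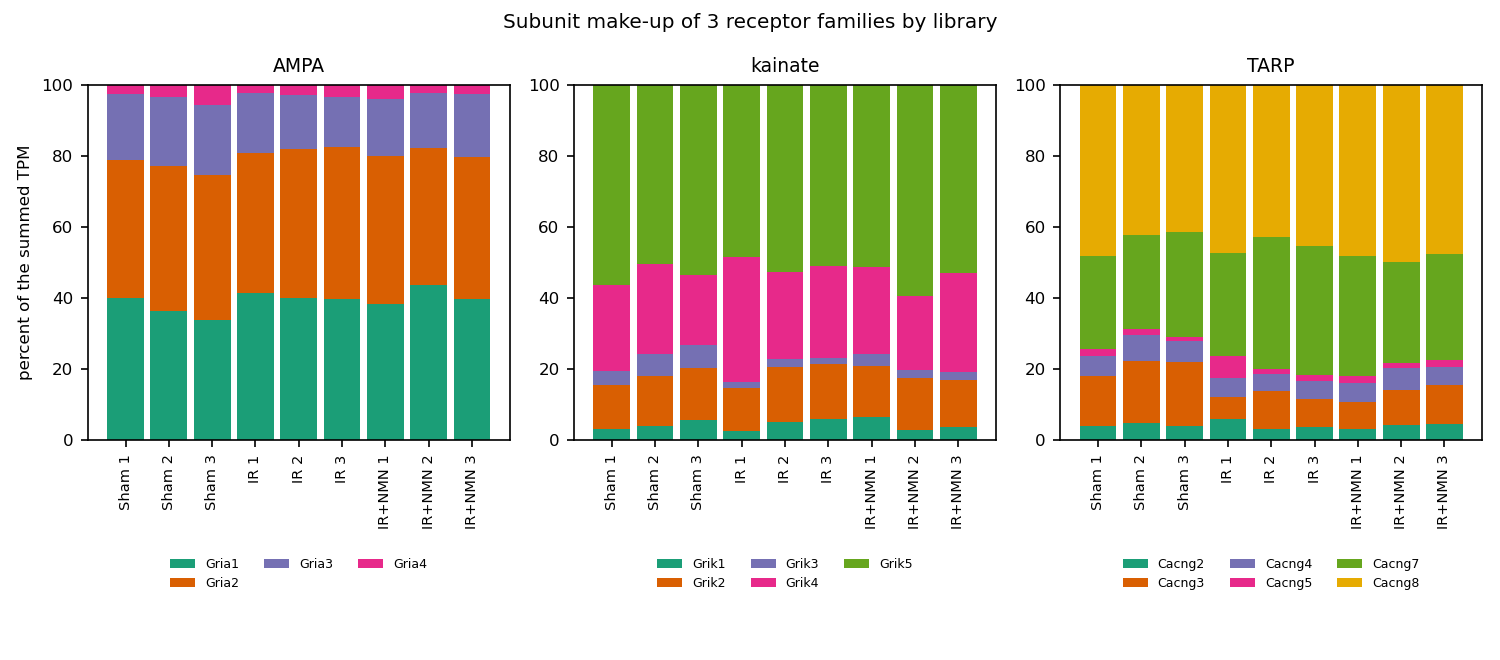
Percent of the summed TPM (y axis) taken by each subunit in 3 receptor families, with 1 bar per library. Grik3 among kainate receptors and Cacng3 among TARPs take a smaller share in the 6 occlusion libraries than in Sham, whereas the share of Gria2 stays between 38.6% and 42.7%.

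The symbols under the filter were all GABA-A receptor genes. Gabrq reached 3.08 TPM in its highest library, Gabrr3 1.14, Gabre 0.882, Gabrp 0.213 and Gabrr1 0.124 TPM. Just inside the filter, Cacng6 reached 1 TPM in 6 of the 9 libraries, Grm6 and Grm8 in 7 and Gabrr2 in 8. Gabra2, Gabra6 and Cacng1 were not analysed here.

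The genes of the GABA-B receptor, which works as a pair of both subunits, did not pass the test. Gabbr1 was at 572, 586 and 434 TPM in Sham, 546, 495 and 510 in IR and 385, 613 and 411 in IR+NMN, the highest level of any receptor gene here. Gabbr2 was at 166, 172 and 119 TPM in Sham, 206, 74.5 and 85.1 in IR and 61.6, 151 and 106 in IR+NMN. The groups overlapped for both, with log2 differences for Gabbr2 of -0.46 in IR (adjusted p = 0.487) and -0.59 in IR+NMN (adjusted p = 0.365). The level of Gabbr1 was 3.40 to 3.65 times that of Gabbr2 for Sham, 2.66 to 6.65 times for IR and 3.89 to 6.26 times for IR+NMN.

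Summed per class, the levels overlapped between the groups nearly throughout. AMPA receptor genes summed to 756, 593 and 443 TPM in Sham, 616, 433 and 397 in IR and 270, 791 and 435 in IR+NMN, and GABA-A receptor genes to 1025, 822 and 710, then 860, 661 and 593, then 428, 914 and 564 TPM. NMDA, metabotropic, Cacng and GABA-B sums overlapped in the same way, with IR 1 and IR+NMN 2 at or near Sham levels. The kainate sum was the exception in IR+NMN, at 68.3, 102 and 86.9 TPM against 145, 154 and 118 in Sham, while IR overlapped with Sham at 134, 74.0 and 90.4 TPM. GABA-A receptor transcripts were 0.758 to 0.983 times the sum of AMPA, NMDA and kainate receptor transcripts over the 9 libraries, and the groups overlapped in this ratio. The pan-neuronal markers moved in part with these sums, as IR 1 was the highest IR library and IR+NMN 2 the highest IR+NMN library in both.

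**Figure D4:**
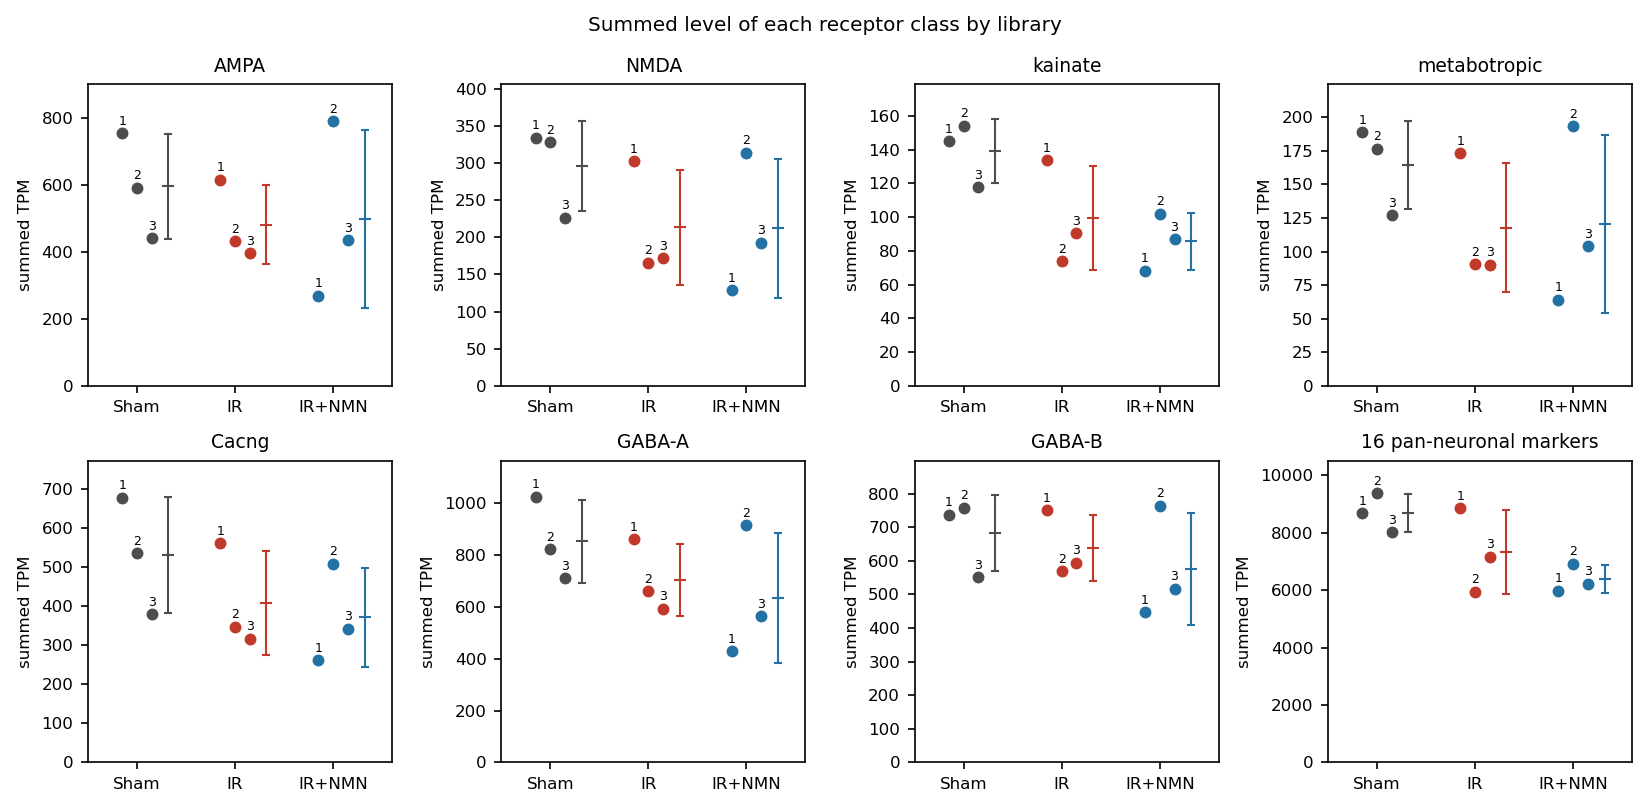
Summed TPM (y axis) of each receptor class and of 16 pan-neuronal markers, by group; numbered points are libraries and bars are the mean ± SD of 3. IR 1 and IR+NMN 2 stand above the other libraries of their groups in every receptor class.

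NMN after the occlusion was examined by comparing IR+NMN with IR. The labels give PBS for IR and NMN in saline for IR+NMN, so the vehicle may differ too. None of the 45 receptor genes was called by limma, where 2.3% of all tested genes were higher and 0.0589% lower, and none was called under any of the alternative settings run. At an unadjusted p under 0.05 there were 2 (4.44%, against 13.3% of all genes), Gabra5 and Gabrg1, both lower in IR+NMN. Gabrg1, a subunit found in glia as well as neurons, was at 36.9, 29.3 and 34.6 TPM in IR and 19.1, 30.4 and 17.7 in IR+NMN, a log2 difference of -0.60 (SE 0.23, adjusted p = 0.293). IR+NMN 2 lay within the IR range. The genes lowered against Sham differed little in this comparison, by 0.18 for Grik3 (95% interval -0.22 to 0.58) and 0.08 for Cacng3 (95% interval -0.61 to 0.76), so a change of Cacng3 by over 0.6 in either direction lies within the interval. The groups did not overlap for 1 receptor gene lower, Gabra5 (2.22%, against 3.22% of all genes), and 0 higher (against 13.7%). Changes lay below 0 for 31 receptor genes (68.9%, against 42% of all genes). The receptor median was -0.08 and that of all genes 0.04. Leaving out IR 1 gave a receptor median of 0.15, leaving out IR+NMN 1 gave 0.19 and leaving out IR+NMN 2 gave -0.35, so its sign rested on single libraries.

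Behind the sums, 30 of the 45 genes had several rows in the table, which carried the same symbol and no transcript identifier, and rows of 1 gene did not always move together. Gabbr1 was the clearest case. Row 2, by mean level, was at 208, 234 and 154 TPM in Sham, 108, 93.6 and 106 in IR and 71.3, 125 and 76.8 in IR+NMN. Its row 3 was at 6.24, 7.36 and 3.79 TPM in Sham, 81.9, 74.9 and 82.2 in IR and 57.6, 90.8 and 68.6 in IR+NMN. Row 7 was at 2.21, 1.42 and 1.84 TPM in Sham, 36.2, 34.5 and 35.3 in IR and 30.8, 43.3 and 27.8 in IR+NMN. Row 2 was thus lower and rows 3 and 7 higher in all 6 occlusion libraries, IR 1 and IR+NMN 2 included, while the sum over the rows overlapped.

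With every row tested singly, an alternative added after the data were seen, row 3 of Gabbr1 rose by 3.61 in IR (SE 0.23, adjusted p = 2.1e-05) and by 3.44 in IR+NMN, and row 7 by 3.70 and 3.62. Row 2 fell by 0.93 in IR (SE 0.23, adjusted p = 0.0484) and by 1.14 in IR+NMN (adjusted p = 0.0189). As a share of Gabbr1, row 2 made up 35.4% to 39.9% for Sham, 18.9% to 20.8% for IR and 18.5% to 20.3% for IR+NMN. Row 3 made up 0.875% to 1.26% for Sham, 15% to 16.1% for IR and 14.8% to 16.7% for IR+NMN.

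**Figure D5:**
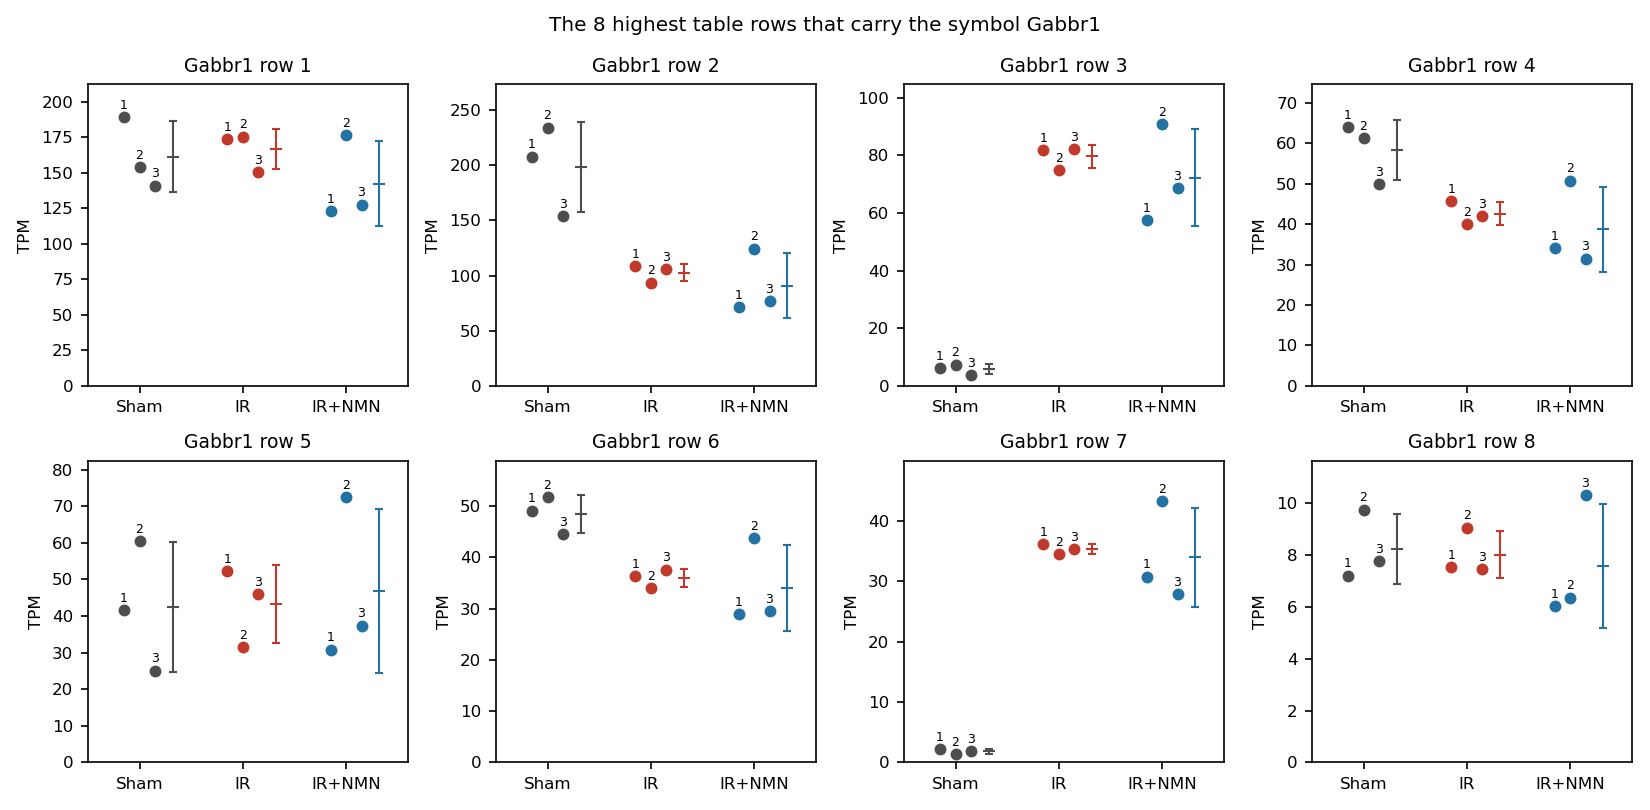
TPM (y axis) of the 8 highest rows that carry the symbol Gabbr1, by group; numbered points are libraries and bars are the mean ± SD of 3. Row 2 lies lower and rows 3 and 7 lie higher in all 6 occlusion libraries than in Sham.

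Its partner gene split in a like manner. Row 4 of Gabbr2 was 3.06% to 3.18% of that gene for Sham, 15.2% to 17.4% for IR and 15.1% to 16.7% for IR+NMN, and row 3 33.0% to 36.0%, 17.5% to 19.2% and 16.8% to 18.9%. Row 1 of Grin2a was 17.3% to 25.4% of the gene for Sham, 62.7% to 69.0% for IR and 65.2% to 70.9% for IR+NMN. In each of these shares the Sham libraries stood apart from all occlusion libraries, and IR and IR+NMN lay together. Whether these splits follow the occlusion or the way the Sham libraries were made or quantified cannot be told apart, and which transcripts the rows stand for was not analysed here.

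Counted over the genes with several rows, a row share that differed by at least 10 percentage points without overlap between the groups, a limit set after the shares were seen, was found for 8 of 30 receptor genes in IR against Sham (26.7%, against 12% of the 5448 symbols with several rows). Among them were Gabbr1, Gabbr2, Grik1, Grin2a, Grin2d, Grm4 and Grm7. There were 9 of 30 in IR+NMN against Sham (30.0%, against 12.2%) and 1 in IR+NMN against IR (3.33%, against 3.41%), the last being Grin2c. No minimum level was set for single rows here, so some of these shares rest on rows near 0. No row of Grin2d exceeded 1.56 TPM. Row 2 of Grm7 was at 0 TPM in IR 1 and IR 3, and row 3 of Grin2c at 0.07 TPM in IR 3. Of 96 receptor rows tested singly, 9 were lower and 3 higher in IR than in Sham, from 10 genes, against 5.68% and 2.05% of 17866 rows. In IR+NMN against Sham the counts were also 9 and 3 (against 5.94% and 4.1%), and in IR+NMN against IR 0 and 0 (against 0.0336% and 0.375%). The main row of Gabrb2, at 54.6, 59.1 and 56.9 TPM in Sham, 29.1, 26.5 and 17.9 in IR and 20.5, 35.7 and 23.0 in IR+NMN, was among those lower in both comparisons (log2 -1.21, adjusted p = 0.0179, and -1.12, adjusted p = 0.0207).

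The partners of these receptors were taken as 6 lists, none of which had a call in IR+NMN against IR. Medians of all tested genes were -0.21 in IR and -0.14 in IR+NMN against Sham. Of all tested genes, 5.26% were called lower and 1.14% higher in IR against Sham, and 6.13% and 4.21% in IR+NMN against Sham. Among 14 auxiliary genes of AMPA and kainate receptors, 0 passed in IR against Sham and 2 were lower in IR+NMN against Sham. These were Neto1, the auxiliary subunit of kainate receptors, with 26.9, 30.9 and 25.8 TPM in Sham and 17.7, 11.6 and 13.5 in IR+NMN (log2 -0.94, adjusted p = 0.0471), and Cpt1c, which helps AMPA receptors reach the surface (log2 -0.74, adjusted p = 0.0315). The median of this list was -0.16 in IR and -0.34 in IR+NMN. Of 25 excitatory scaffold genes, Dlg1, which encodes a scaffold of AMPA receptors, was lower in both, at 22.2, 30.1 and 29.2 TPM in Sham, 17.9, 14.9 and 17.3 in IR and 17.7, 18.3 and 18.7 in IR+NMN (adjusted p = 0.0337 and 0.0463). Arc, an immediate early gene that drives the uptake of AMPA receptors, was lower in IR+NMN, at 56.4, 50.8 and 33.6 TPM in Sham and 7.44, 17.5 and 14.6 in IR+NMN (log2 -1.80, adjusted p = 0.0130). The scaffold medians were -0.31 in IR and -0.44 in IR+NMN.

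Of 16 genes for GABA-A receptor anchoring and transport, 0 passed in IR, and in IR+NMN Trak1, a trafficking adaptor, was lower (log2 -0.68, adjusted p = 0.0354) and Gabarap, which binds gamma subunits, higher (log2 0.43, adjusted p = 0.0434). Of 8 GABA-B receptor partners, Rgs7, which shortens the G protein signal, was lower in IR+NMN (log2 -0.82, adjusted p = 0.0227) and 0 passed in IR. Of all genes, 6.13% were lower and 4.21% higher in IR+NMN against Sham. Medians were -0.32 and -0.41 for the GABA-A list and -0.32 and -0.46 for the GABA-B list. None of 10 related receptor genes outside the naming rule, such as delta glutamate receptor genes, passed in any comparison with limma. At an unadjusted p under 0.05 there were 4 of the 10 in each comparison with Sham, where 28.3% and 29.9% of all genes were, and 0 in IR+NMN against IR, and their medians against Sham were -0.55 and -0.46.

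The 19 genes for making and moving glutamate and GABA had the largest number of calls among these lists, which differ in size. In IR+NMN against Sham 6 were lower and 1 higher, where 6.13% of all genes were lower and 4.21% higher. In IR against Sham 0 were called, and the medians were -0.63 in IR+NMN and -0.39 in IR. The GABA transporter gene Slc6a11 was at 38.5, 58.3 and 37.0 TPM in Sham, 28.2, 22 and 37.0 in IR and 12.5, 21.3 and 13.5 in IR+NMN (log2 -1.45 for IR+NMN against Sham, adjusted p = 0.0131). It lay lower in each IR+NMN library than in each Sham library. Gad1, which makes GABA, and Slc17a6, which loads glutamate into vesicles, were lower as well (log2 -0.70, adjusted p = 0.0337, and -1.27, adjusted p = 0.0354). Glul, the glutamine synthetase of astrocytes and the gene of the list that rose, named after its values were seen, was at 809, 910 and 740 TPM in Sham and 1162, 1435 and 1192 in IR+NMN (log2 0.62, adjusted p = 0.0452). The difference between the IR and the IR+NMN response of these genes did not pass the test in IR+NMN against IR.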

How the data were processed

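Per the labels' protocols, total RNA was amplified by Smart-Seq2. The authors deposited a table of TPM, in which each library sums to 1000000. STAR and Cufflinks are named in the submitters' processing notes, as is hg38, a human build, although these are rat libraries. Versions and annotation are not given in these sources. A symbol stood in 27683 of 131003 rows, which held 72.7% to 78.7% of TPM; 40459 rows with a dash and 62861 with a blank were left out. Rows were summed per symbol. Depth cannot be read from TPM, so no counting interval can be given; 9741 to 10120 symbols reached 1 TPM per library.

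Log2(TPM + 1) values of the 10180 symbols with at least 1 TPM in at least 3 libraries were fitted in 1 model in R 4.3.3 by limma 3.58.1 (tables read with data.table, version 1.17.8), with 1 mean per group, an intensity trend and robust moderation. The scale understates the changes of weakly expressed genes. P-values were two-sided and adjusted by Benjamini-Hochberg over all 10180 genes, and called under 0.05; every adjusted p-value here comes from limma. The 3 contrasts share libraries, so they are not independent. The procedure was tested on simulated data with independent noise for each gene and library. Shifts shared by the genes of a library, as seen here, were not simulated. All 50 symbols matched the RefSeq gene table of GRCr8.

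Library values are given for the genes called in any contrast and, per class, for the most abundant gene and those with the smallest p. From the other lists, up to 4 called genes by smallest p are named. Some genes that these rules would name are not reported here. The members and lists were chosen with earlier results of these data known. Alternatives were other pseudocounts, filters, scalings, rows, groups in the fit, covariates, a replicate block and each library left out.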

Additional observations from a re-analysis of the deposited data

How the results depend on the processing

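The number of receptor genes called in IR against Sham was 2. It was 4 with quantile scaling, 4 with median-of-ratios scaling, 7 with the highest row per symbol, 5 with only the 2 groups in the fit, 1 with the pan-neuronal level as a covariate, 1 with the replicate block and 10 genes with each row tested on its own, and from 1 to 8 with a library left out. In IR+NMN against Sham it was 6. It was 3 with the filter at 5 TPM, 10 with quantile scaling, 10 with the highest row per symbol, 3 with only the 2 groups, 3 with ribosomal protein share in the fit, 0 with the pan-neuronal level, 1 with the replicate block and 10 with each row on its own, and from 1 to 15 with a library left out. The other settings stayed within 1.5 times the reported counts, and the cause of these differences was not tested. Among these alternatives, a share of all genes is given above only for quantile scaling, the pan-neuronal level and single rows. The other counts show how far the number of calls moved, and not how receptor genes compare with all genes. In IR+NMN against IR, 0 receptor genes were called in every setting run. With a covariate, the receptor median in IR against Sham moved from -0.40 to -0.005 for the ribosomal protein share and to 0.20 for the pan-neuronal level. The medians of all genes in these fits are not given here, nor are those of IR+NMN against Sham.

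Same-numbered libraries had correlations of their deviations from -0.57 to 0.49, and differently numbered ones from -0.54 to 0.58. With ranges so alike, the check cannot tell whether the numbers pair the samples, and the replicate block is given as a count alone. The single calls kept their side of the threshold in 36 of 72 fits with a library left out and in 61 of 85 under other settings, and none reversed. Of the class sums and shares, 72 of 123 moved by more than the SD between replicates when the highest row replaced the sum. With a library left out, 0 of 369 did, but this count says nothing about how stable they are. Leaving 1 of 3 libraries out cannot move a group mean by as much as the SD of that group. Without read counts, how far depth limits the genes near 1 TPM (Grm8, Gabrr2, Grin3b) is unknown.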
